A study of Mus musculus with 4 samples.

Results

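The cytosolic ribosomal protein genes were described in activated mouse spleen cells with and without imatinib. They were the probes whose gene name on the array began with Rpl or Rps followed by a digit, or was Rplp0, Rplp1, Rplp2 or Rpsa, without the Rps6k kinases and without names ending in -ps and digits. The rule found 178 of 39429 probes, for 86 of 31829 gene names: 53 of the large subunit, 32 of the small subunit and Rps19bp1, which codes for a protein that binds RPS19 and is no ribosomal protein. Both groups were splenocytes of female C57BL/6 mice aged 8 weeks, cultured for 72 h with IL-4 and LPS, which drive B cells to divide and switch isotype. Imatinib, which blocks the tyrosine kinases ABL, PDGFR and KIT, was present at 10 µM in 1 group and absent from the control. Each group gave 2 samples, with 1 Agilent 1-colour array each, from whole splenocytes without a sort named in the labels. Nothing in the labels tells separate mice or cultures from repeats of 1 RNA, so p-values measure only the spread between these samples.

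All 4 arrays lay on 1 slide, between 24983 and 26741 probes were well above background on each, and no spot was saturated. Signals are given in log2 units above or below the 75th percentile of their array, which was 678 to 854 intensity units. Pearson's r across probes was 0.997 to 0.998 within groups and 0.982 to 0.984 between them (across probes, which are no replicates). Precision is limited by having 4 arrays: an exact permutation test of 2 arrays against 2 cannot go below p = 0.333, so the tests rest on limma's fit across 25375 probes. In that fit 10622 probes passed an adjusted p of 0.05, 4905 higher and 5717 lower with imatinib. Of the B cell markers, Cd79b stood at 7.25 and 7.33 with imatinib and 7.37 and 7.22 in control, and Blnk at 6.57 and 6.50 against 6.58 and 6.47.

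Ribosomal proteins are the protein part of the small (40S) and large (60S) subunits of the ribosome, made in nearly equal amounts in every dividing cell. Their mRNAs are among the most abundant of a lymphocyte and begin with a C and a pyrimidine tract, the 5′ terminal oligopyrimidine (TOP) motif, through which mTORC1 and LARP1 control their translation. Activated B cells enlarge and build ribosomes before they divide and secrete antibody. Several genes have paralogs with restricted expression, such as Rpl3l of striated muscle and Rpl39l of testis.

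The probe sequences that carry the results are of 2 kinds. The first are the 2 probes of Rps15, the gene with the largest rise among members with an intense signal. The 60-base probes differ in sequence and gave differences of 0.45 and 0.43 on the log2 scale.
Rps15 probe A_55_P2037524: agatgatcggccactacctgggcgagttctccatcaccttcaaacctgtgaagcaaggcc
Rps15 probe A_66_P124555: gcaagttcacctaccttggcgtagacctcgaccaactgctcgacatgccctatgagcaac
The second kind is a paralog pair of which 1 passed and the other did not. The probes of Rpl3 and Rpl3l overlap, without gaps, over the 27 bases in capitals, of which 20 (74.1%) are identical.
Rpl3 probe A_55_P2030802: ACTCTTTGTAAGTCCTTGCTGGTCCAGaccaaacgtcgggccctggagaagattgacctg
Rpl3l probe A_51_P243123: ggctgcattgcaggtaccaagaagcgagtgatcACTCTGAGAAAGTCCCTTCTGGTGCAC

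Ribosomal protein mRNAs as a group barely moved with imatinib, and most did not pass the test. Of the 174 tested probes, 18 (13 genes) were higher with imatinib, 11 (11 genes) were lower and 145 did not pass, so 16.7% passed against 41.9% of all tested probes. By direction, the array as a whole had 19.3% higher and 22.5% lower. The other 4 member probes were not tested: a probe each of Rpl17, Rpl7 and Rps15a had a marked spot on the control 1 array, and a probe of Rpl10l was below background throughout. The middle 50% of the members lay between 0.05 and 0.21 on the log2 scale, and 138 of the 174 lay within 0.25 of 0 in either direction. Without the filter that keeps probes above background in a group, or with replicate numbers as a block, fewer passed, as given with the settings. Leaving out an array changed the number up or down, depending on the array.

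The median difference was 0.14 on the log2 scale with imatinib higher, against 0.00 for all tested probes. This sign depends on the scaling: it was 0.02 with quantile normalization and 0.10 with normexp background correction, but -0.05 with median centring and -0.14 with spike-in scaling. Under median centring the median of all tested probes was -0.19, and under spike-in scaling -0.28. The 5 scalings were the 75th percentile and these 4. Relative to the median of all probes, the members stood 0.14 higher with the 75th percentile, median centring and spike-in scaling. Each of these subtracts a constant per array, so their gap is equal by construction. It was 0.08 with quantile normalization and 0.07 with normexp. The groups did not overlap for 111 probes that were higher and 18 that were lower with imatinib, 74.1% together, near the 73.7% of all tested probes (35.2% higher and 38.4% lower).

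**Figure D1:**
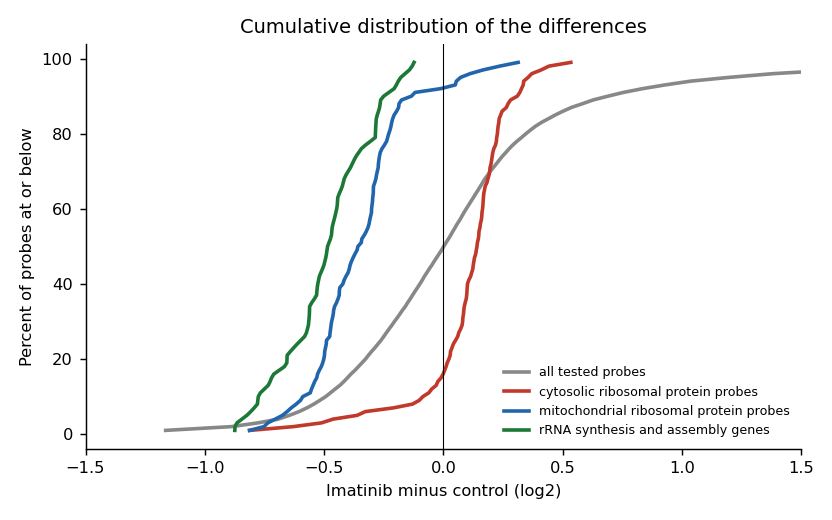
Cumulative percent of probes (vertical axis) by the log2 difference of imatinib and control (horizontal axis, 75th percentile scaling) for cytosolic ribosomal protein probes, mitochondrial ribosomal protein probes, genes of rRNA synthesis and assembly, and all tested probes. The cytosolic curve is steep and centred at 0.14 (-0.05 with median centring and -0.14 with spike-in scaling), while the mitochondrial and assembly curves lie to the left, with medians of -0.36 and -0.49. Many probes of the latter lie at a mean log2 signal of 0 to 5. There, all tested probes had medians of -0.10 to -0.17 by bins of 1 unit.

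With the scaling used for the fit, the control arrays differed from each other about as much as the groups did. Of the 147 tested member probes with a mean log2 signal of at least 5, 133 were lowest of the 4 arrays on control 2. The median of control 1 minus control 2 over these probes was 0.14, next to a median group difference of 0.15 and a median of -0.01 for imatinib 1 minus imatinib 2. Without control 2 the median of all tested members was 0.06, and without control 1 it was 0.20. The replicate SD of a member probe had a median of 0.10 in control and 0.03 with imatinib, against 0.07 and 0.05 over all tested probes. These array differences depended on the scaling. The median of all tested members was 11.76 and 11.73 in control and 11.80 and 11.69 with imatinib under median centring. It was 5.07 and 5.04 against 5.01 and 4.91 under spike-in scaling. In these scalings the imatinib arrays lay further apart than the control arrays. Under quantile normalization the median was 17.09 and 17.10 against 17.14 and 17.13, and with normexp 7.54 and 7.44 against 7.61 and 7.63. A bulk measurement like this cannot tell fewer cells of a type from less RNA per cell.

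Signal level separated the members into 2 groups with a gap between a mean of 4.41 and 5.39, and the border at 5 was set after the values were seen. Above it, 13 of 147 probes rose and 1 (Rps27l) fell, 9.52% in all against 29.4% of all tested probes at that signal, with a median difference of 0.15. Below it, 5 of 27 rose and 10 fell, 55.6% against 42.6% of all tested probes there, with a median of -0.13. The median of all tested probes below 5 was -0.004. Between 1 and 5 it was -0.14 to -0.17 by bins of 1 unit. Of the 10 member falls below 5, 4 were in paralogs and Rps19bp1, and the rest were weak probes of genes that also have an intense probe, Rpl21 excepted. Across the 174 probes, signal and difference had a Pearson's r of 0.37 and a Spearman's rho of 0.23, given as a description of probes that share the arrays.

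Other intense probes were set beside the members by signal. At a mean signal of 7 or more, the median difference was 0.15 for 118 members and 0.13 for 467 other probes, and it was 0.12 for the 391 of these whose description names no ribosomal protein. By name or description, 131 of the 391 are predicted genes (median 0.14) and 136 are unknown (0.13), and the remaining 124 had a median of 0.05. Whether the predicted and unknown probes also detect ribosomal protein mRNA was not tested. Of those 391, 28 rose and 19 fell, and of the members 10 rose and none fell (8.47%). Over all signals of at least 5, the 1324 other probes had a median of 0.02 and 31.6% passed. Between 5 and 6 the members stood at 0.12 (9 probes) and the other probes at -0.16 (505 probes). Between 6 and 7 they stood at 0.18 (20 probes) and 0.02 (352 probes). The gaps between these medians were not tested.

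**Figure D2:**
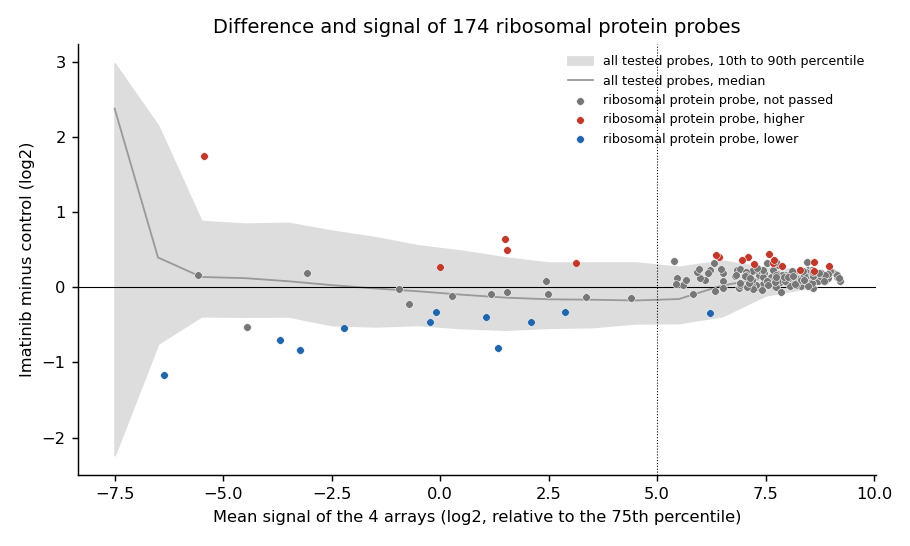
Log2 difference of imatinib and control (vertical axis) by mean log2 signal of the 4 arrays relative to the 75th percentile (horizontal axis) for 174 ribosomal protein probes, over the median and the 10th to 90th percentile of all tested probes (bins of 1 unit with at least 20 probes). Intense members, right of the dotted line at 5, lie in a narrow band with a median of 0.15 (-0.13 with spike-in scaling), and 10 of the 11 falls lie to its left.

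**Figure D3:**
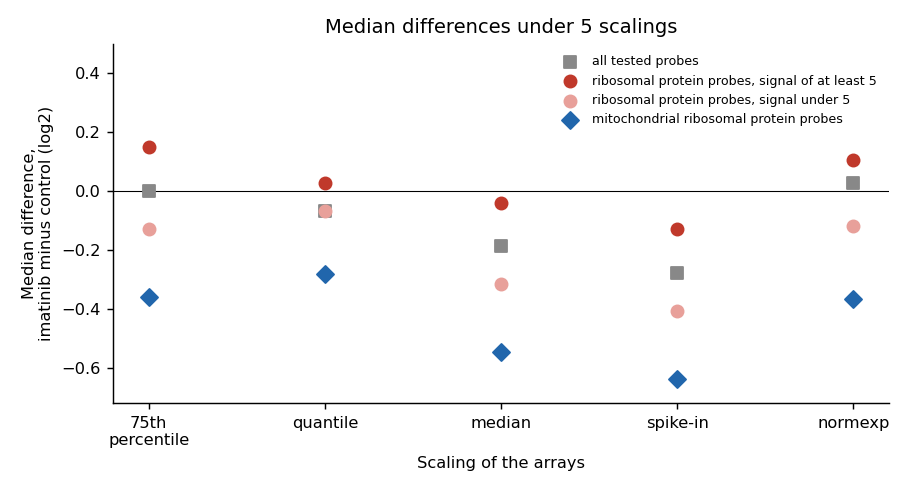
Median log2 difference (vertical axis) of ribosomal protein probes with a mean log2 signal of at least 5 and under 5, mitochondrial ribosomal protein probes and all tested probes under 5 scalings of the arrays (horizontal axis). The intense members lie above all probes in each scaling, and cross 0 with median centring (-0.04) and spike-in scaling (-0.13).

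Among the small subunit probes with a signal of at least 5, the 2 of Rps15 rose most. RPS15 lies in the head of the 40S subunit near the decoding site. Its brighter probe read 7.79 and 7.81 with imatinib and 7.47 and 7.22 in control, a difference of 0.45 ± 0.10 (SE, 1.37-fold; adjusted p = 0.033, limma). The other probe read 6.54 and 6.64 against 6.20 and 6.10, and its difference was 0.43 ± 0.08 (adjusted p = 0.017, limma). On both probes every imatinib array was above every control array, as on 35.2% of all tested probes. Both calls ended without imatinib 1, imatinib 2 or control 2 and with median centring or spike-in scaling (0.17 and 0.16 in the latter). Rps15a, whose protein sits in the 40S body, read 7.44 and 7.36 with imatinib and 7.12 and 7.05 in control. Its difference of 0.32 ± 0.07 passed (adjusted p = 0.027, limma) and lost that call without any of the 4 arrays in turn. A very weak Rps15a probe read -4.93 and -4.49 against -4.19 and -4.18, and did not pass (adjusted p = 0.069, limma).

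Among the large subunit proteins, Rpl17, Rpl39 and Rpl12 rose. RPL17 and RPL39 line the peptide exit tunnel of the 60S subunit, and RPL12 forms the base of the stalk. The brightest tested probe of Rpl17 read 7.28 and 7.30 with imatinib and 6.99 and 6.78 in control, a difference of 0.41 ± 0.09 (adjusted p = 0.034, limma). Of its 6 tested probes 3 passed, the 5 with a signal above 5 differed by 0.33 to 0.41, and the weak probe by 0.09. The best Rpl39 probe read 7.86 and 7.90 against 7.62 and 7.43, with a difference of 0.36 ± 0.09 (adjusted p = 0.038, limma). A weak Rpl39 probe also passed at 0.27, but was at -0.01 with spike-in scaling and lost its call without any of the 4 arrays. The probes of Rpl12 differed by 0.34 ± 0.07 and 0.33 ± 0.08, and the brighter read 8.77 and 8.80 with imatinib and 8.50 and 8.40 in control (adjusted p = 0.023, limma). No value of a control array reached those of the imatinib arrays on these 3 probes. That separation was also seen in 35.2% of all tested probes and in 105 of the 147 tested member probes with a signal of at least 5. The calls of the 3 genes on these probes ended without imatinib 1, imatinib 2 or control 2 (that of the second Rpl12 probe also without control 1), and with median centring (0.22, 0.18 and 0.15).

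Further rises were small or on weak probes, and are named because they were seen to pass. Single intense probes of Rps27 (0.28), Rps16 (0.22) and Rpl27a (0.23) passed; with spike-in scaling they stood at 0.00, -0.06 and -0.05, and their calls ended without any of the 4 arrays in turn. Weak probes of Rpl22 (0.64), Rps24 (0.49) and Rpl23 (0.32) passed too, while the intense probes of these genes did not. The Rpl22 probe read 1.81 and 1.84 with imatinib and 1.14 and 1.24 in control, and kept its call without each array in turn (adjusted p = 0.006 on all 4 arrays, limma). The Rps24 probe, for transcript variant 1 by its description, lost its call without imatinib 2 or control 2, and the Rpl23 probe without imatinib 1, imatinib 2 or control 2. These weak probes lay above control on both imatinib arrays, as did 35.2% of all tested probes.

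The acidic stalk of the large subunit, built from RPLP0, RPLP1 and RPLP2, recruits the translation factors that hydrolyse GTP. Of its 5 probes only that of Rplp2 passed. Rplp2 read 9.13 and 9.08 with imatinib and 8.89 and 8.76 in control, a difference of 0.28 ± 0.07 (1.22-fold; adjusted p = 0.045, limma), which ended without imatinib 1, imatinib 2 or control 2 and was 0.00 with spike-in scaling. The best probe of Rplp0 read 9.21 and 9.24 against 9.18 and 8.99, with a difference of 0.14 and a 95% interval of -0.11 to 0.38. Rplp1 read 8.75 and 8.78 against 8.74 and 8.61, with a difference of 0.09 and an interval of -0.11 to 0.28. All 5 stalk probes were higher on both imatinib arrays than on both control arrays, with control 2 the lowest each time. The same separation was seen in 105 of the 147 tested member probes with a signal of at least 5. It was seen in 35.2% of all tested probes. With spike-in scaling the differences of the Rplp0 and Rplp1 probes were -0.05 to -0.19.

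Of Rpsa, Rps6, Rpl5 and Rpl11, whose products also have roles or partners outside translation, no probe passed with the 75th percentile scaling. With spike-in scaling the weak probes of Rpsa (-0.39) and Rps6 (-0.41) and an intense Rpl11 probe (-0.27) passed as lower, the Rps6 probe also with median centring (-0.32). RPSA, also known as the laminin receptor precursor, had 4 probes with differences of -0.11 to 0.20. The brightest read 9.02 and 8.78 with imatinib and 8.93 and 8.70 in control, with overlapping groups. RPS6, the substrate of the S6 kinases below mTORC1, had probes at 0.15, 0.13 and -0.13, and its brightest read 8.21 and 8.23 against 8.08 and 8.06 (adjusted p = 0.10, limma). RPL5 and RPL11 form, with 5S rRNA, the particle that binds MDM2 when ribosome assembly stalls. Rpl5 read 6.57 and 6.55 against 6.46 and 6.50 (0.08, 95% interval -0.08 to 0.24), and the best Rpl11 probe 8.92 and 8.91 against 8.89 and 8.77 (0.09, -0.11 to 0.28). A p above the threshold does not show that these levels were equal.

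**Figure D4:**
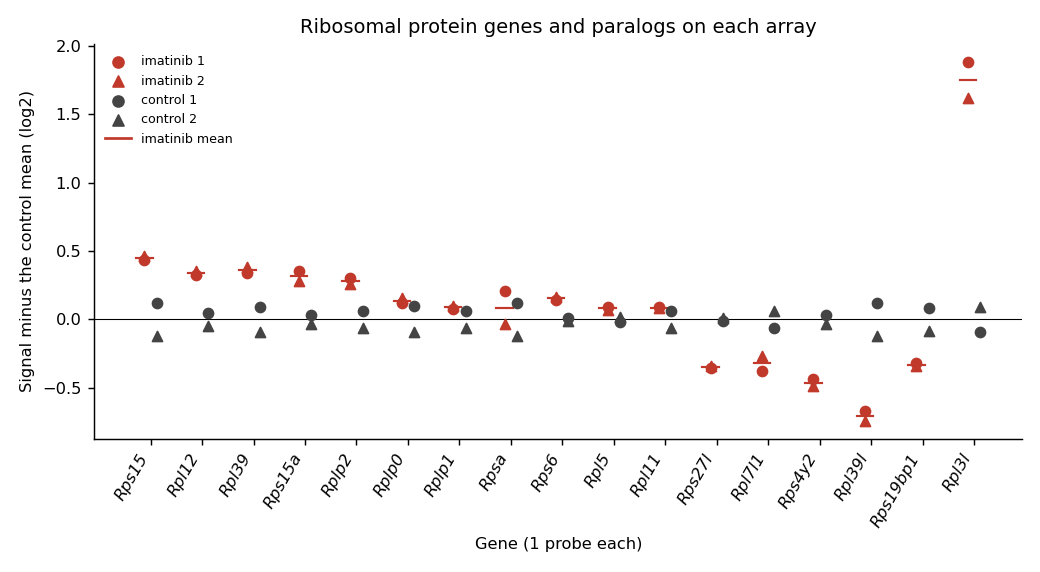
Log2 signal of each array minus the control mean (vertical axis) for 17 genes (horizontal axis, 1 probe each), with circles for replicate 1, triangles for replicate 2 and a line at the imatinib mean. The first 5 genes lie above control on both imatinib arrays, with means 0.28 to 0.45 higher. The next 6 have means 0.08 to 0.15 higher, and all of them but Rpsa also lie above both control arrays on each imatinib array. The next 5 (paralogs and Rps19bp1) lie below, and Rpl3l lies 1.75 above.

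Of the paralogs, several differed in call from their partners (the difference between partners was not tested). Among the 9 tested paralog probes 4 fell and 1 rose, while 22.5% of all tested probes fell and 19.3% rose. RPS27L, a p53-induced form of RPS27, fell: Rps27l read 6.03 and 6.05 with imatinib and 6.38 and 6.39 in control, a difference of -0.35 ± 0.06 (adjusted p = 0.015, limma). The 2 probes of Rps27 lay in the other direction, at 0.34 (not passed) and 0.28 (passed). Rps27l was the only fall among members with a signal of at least 5, was lower under each of the 5 scalings (-0.35 to -0.63), and lost its call without imatinib 1, imatinib 2 or control 2. RPL7L1 acts in assembly of the large subunit. Rpl7l1 read -0.30 and -0.19 against 0.01 and 0.14 (-0.32 ± 0.08, adjusted p = 0.043, limma), a call that ended without any of the 4 arrays in turn, while the 3 tested Rpl7 probes stood at 0.14 to 0.16 and did not pass.

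Weakly expressed paralogs followed. Rpl39l read -3.999 and -4.068 with imatinib and -3.20 and -3.45 in control (-0.71 ± 0.11, adjusted p = 0.012, limma), and -0.30 with normexp. Rps4y2, named Rps4l in RefSeq, read -0.44 and -0.49 against 0.03 and -0.03 (-0.46 ± 0.06, adjusted p = 0.0101, limma). Both calls ended without imatinib 1 or imatinib 2. The 2 probes of its partner Rps4x stood at 0.26 and 0.15 and did not pass. Rps19bp1 read 2.72 and 2.70 against 3.12 and 2.95 (-0.33 ± 0.08, adjusted p = 0.041, limma), and this call ended without imatinib 1, imatinib 2 or control 1.

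Rpl3l differed most of the members that rose, at the floor of the arrays: its probe was above background on both imatinib arrays and 1 of the 2 control arrays. It read -4.42 and -4.69 with imatinib and -6.40 and -6.22 in control, a difference of 1.75 ± 0.13 (adjusted p = 0.0028, limma). With normexp background correction the difference was 0.48, below the 0.59 of the weak Rpl22 probe, so neither its size nor its rank held. Rpl3, which carries the overlapping probe stretch shown above, read 8.06 and 8.10 against 8.13 and 8.00, with a difference of 0.01 that did not pass. With spike-in scaling Rpl3 passed as lower (-0.26). Rpl22l1 (-0.01) and Rpl36al (-0.05) did not pass, nor did their partners Rpl22 and Rpl36a on their brightest probes (0.19 and 0.23). The tested Rpl10l probe (0.16) was close to background, and Rpl10 stood at 0.02 to 0.10. Rpl26l1, listed in RefSeq as the pseudogene Rpl26-ps4, stood at 0.20 and did not pass.

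Several genes had probes that did not go together. Of 54 genes with more than 1 tested probe, 26 had differences within 0.1 of each other, 6 spread by 0.5 or more, and none had probes that passed in opposite directions. In 5 of the 6 a weak probe stood below the intense probes of the gene, and in Rpl21 both probes were weak. These were seen after the values were known.

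For Rps27a, whose product is ubiquitin fused to RPS27A, the weak probe is for transcript variant 1 by its description. It read -3.77 and -3.54 with imatinib and -2.84 and -2.80 in control (-0.83 ± 0.10, adjusted p = 0.0076, limma), against 0.08 and 0.20 on the intense probes, and kept its call without each array in turn. The weak Rpl30 probe, also for a transcript variant 1, read 1.87 and 1.85 against 2.32 and 2.34 (-0.47 ± 0.06), and the intense ones stood at 0.20 and 0.16 (-0.08 and -0.11 with spike-in scaling). Rpl31 had a weak probe at -0.39 that passed and 4 intense probes between -0.03 and 0.00 that did not. The calls of Rpl30 and Rpl31 ended without imatinib 1 or imatinib 2.

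**Figure D5:**
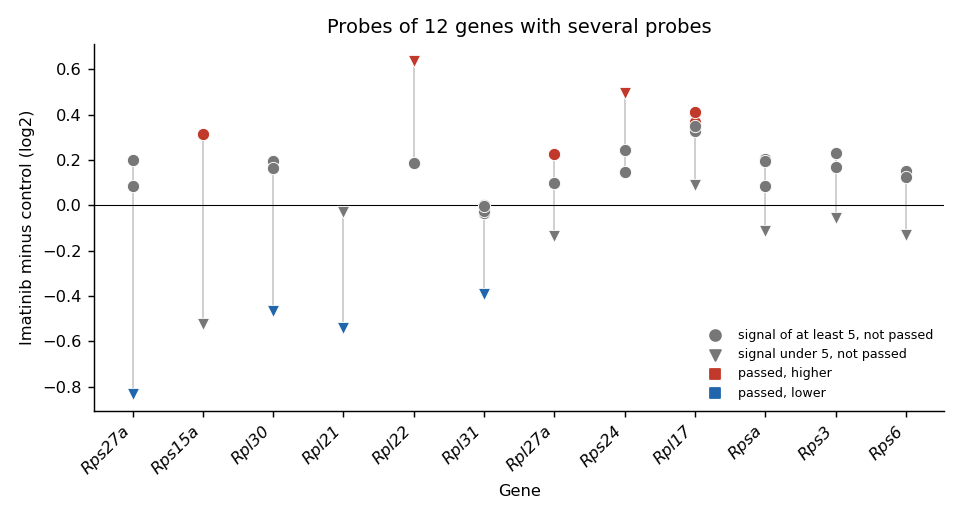
Log2 difference of imatinib and control (vertical axis) of each tested probe for 12 ribosomal protein genes with a wide spread between probes (horizontal axis). Triangles mark probes with a mean log2 signal under 5, and the falls of Rps27a, Rpl30, Rpl21 and Rpl31 are all triangles.

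Promoter sequences were matched for 64 of the 86 gene names in RefSeq (GRCm38.p6). The stretch from 30 bases before to 30 bases after the annotated start held CTTTC, a pyrimidine stretch of TOP type, on the sense strand in 22 of 64 member genes (34.4%), against 9.18% of all 27025 genes. The longer CTCTTTC was there in 8 of 64 (12.5%) against 0.969%. It contains the shorter motif. The shorter one was present in 8.70% of 69 mitochondrial ribosomal protein genes and in 5.88% of 34 rRNA synthesis and assembly genes. Leaving out paralogs and Rps19bp1, 21 of 56 member genes (37.5%) held CTTTC, so most did not. Windows of 7 genes are shown as examples with and without CTTTC, in capitals. Those shown without it are paralogs, and the window of Rps6, not printed, also lacked it. Rplp2, Rpl12 and Rps27 (rises) and Rpl39l (a fall) hold it, and Rpl3l (a rise; the first of 2 entries, neither of which holds it), Rps27l and Rpl7l1 (falls) do not.
Rplp2, chr7:141447621-141447680, plus strand: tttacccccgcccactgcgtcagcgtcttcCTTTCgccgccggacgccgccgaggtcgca
Rpl12, chr2:32961682-32961741, plus strand: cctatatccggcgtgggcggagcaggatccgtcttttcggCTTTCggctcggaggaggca
Rps27, chr3:90213619-90213678, minus strand: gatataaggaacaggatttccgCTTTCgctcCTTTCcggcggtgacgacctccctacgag
Rpl39l, chr16:10170198-10170257, plus strand: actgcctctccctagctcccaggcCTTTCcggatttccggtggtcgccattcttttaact
Rpl3l, chr17:24727796-24727855, plus strand: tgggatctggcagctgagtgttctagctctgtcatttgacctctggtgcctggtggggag
Rps27l, chr9:66946056-66946115, plus strand: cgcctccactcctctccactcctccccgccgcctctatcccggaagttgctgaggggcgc
Rpl7l1, chr17:46782627-46782686, minus strand: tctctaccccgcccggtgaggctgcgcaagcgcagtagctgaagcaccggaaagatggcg
In the windows of 300 bases, on both strands, CCGGAAG, bound by ETS factors such as GABP, was in 40.6% of the member genes and 9.93% of all genes. It was in 37.7% of the mitochondrial ribosomal protein genes and 35.3% of the rRNA synthesis and assembly genes. AAGATGG, a YY1 motif, was in 15.6% against 7.28%, GGGCGG, an SP1 motif, in 62.5% against 38.2%, and TATAAA in 10.9% against 15.7%. A match is a description of these letters, and the shares were not tested.

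Lists of genes around the ribosome are given beside the members, with no test between lists. By 1 probe per gene, 41.1% of 20500 genes passed (19.4% higher, 21.7% lower), and 8 members rose and 5 fell of 86. Of ribosomal proteins outside the name rule, Fau and Rack1 stood at 0.20 and 0.12 and did not pass, and at -0.07 and -0.16 under spike-in scaling. Of 17 other TOP mRNAs, which share the motif and its control, 2 rose and 1 fell, with a median of -0.04. Vim, coding for vimentin, rose by 1.02, Tpt1 by 0.22 (-0.06 with spike-in scaling), and Eif3e, coding for an initiation factor subunit, fell by 0.42. The call of Vim held without each array in turn, while those of Tpt1 and Eif3e ended without imatinib 1, imatinib 2 or control 2, and that of Tpt1 also without control 1.

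Of 17 genes of mTORC1 and TOP translation control, 2 rose and 6 fell, with a median of -0.18. Mtor, the kinase itself, fell by 0.59 (-1.68 and -1.65 with imatinib, -1.13 and -1.004 in control), and Cnbp, which binds TOP mRNAs, by 0.56. Tsc2, a brake on mTORC1, rose by 0.56 with a weak signal of -4.22 and -4.23 against -4.74 and -4.83. The calls of Mtor and Tsc2 ended without imatinib 1 or imatinib 2, and that of Cnbp without imatinib 2. Of 8 tested regulators of ribosomal protein transcription, 1 rose and 3 fell. Myc fell by 0.59 (0.79 and 0.74 against 1.26 and 1.46), a call that ended without imatinib 1 or imatinib 2, and Tbpl1 by 0.30, a call that ended without any of the 4 arrays in turn. Ubtf rose by 1.34, on a probe that holds a short tandem repeat.

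Assembly genes fell together. Of 39 tested genes of rRNA synthesis and ribosome assembly, 32 fell and none rose (39 were below 0 under each of the 5 scalings), with a median of -0.49. For comparison, all tested probes at a mean signal of 0 to 5 had medians of -0.10 to -0.17 by bins of 1 unit. Gnl3, a nucleolar GTPase, read 1.27 and 1.22 with imatinib and 2.09 and 2.15 in control (-0.88 ± 0.06), and Polr1e, a subunit of RNA polymerase I, read 0.90 and 0.92 against 1.80 and 1.76 (-0.87 ± 0.06). Wdr12, of the large subunit assembly complex with PES1 and BOP1, fell by 0.82. Of 14 chaperones and importins of ribosomal proteins, 8 fell and none rose, with a median of -0.26. Grwd1, the chaperone of RPL3, fell by 0.69, and the importins Kpnb1 and Ipo5 by 0.68 and 0.54; the call of Kpnb1 ended without imatinib 1 and that of Ipo5 without imatinib 1 or imatinib 2. Of 6 genes around the 5S particle and MDM2, 2 rose and 3 fell: Cdkn1a, the p53 target p21, rose by 1.27, Mdm4 rose by 0.58 (not passed without imatinib 2), and Rrs1, which loads the 5S particle, fell by 0.66.

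Mitochondrial ribosomal proteins, which share the name of the family but serve the organelle's own ribosome, mostly fell. Of their 93 tested probes 70 fell and 1 rose (76.3% passed), with a median of -0.36 and with -0.28 to -0.64 under the 5 scalings. Many of them lie at a mean signal of 0 to 5, where all tested probes had medians of -0.10 to -0.17 by bins of 1 unit. Mrps27 read 0.01 and 0.12 with imatinib and 0.92 and 0.81 in control, Mrps11 0.52 and 0.57 against 1.30 and 1.28, and Mrps22 1.11 and 1.06 against 1.84 and 1.802. The gap between the medians of the cytosolic and mitochondrial probes was not tested.

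Markers of spleen cell types were read on the same arrays. Of 12 T cell markers 10 rose and none fell, and their summed signal, relative to the 75th percentile, was 53.8 and 53.9 with imatinib and 26.9 and 25.9 in control. Lck read 3.72 and 3.68 with imatinib and 2.21 and 2.18 in control, and Thy1 4.53 and 4.54 against 3.83 and 3.85. Of 10 B cell markers 1 rose and 6 fell, with sums of 338 and 343 against 386 and 360. Of 9 tested macrophage markers 5 rose, of 6 neutrophil markers 4 rose and 1 fell, of 4 NK cell markers 3 rose, of 4 erythroid markers 1 rose, of 3 platelet markers 1 rose, and of 6 plasma cell markers 3 rose and 2 fell. The macrophage markers C1qa, C1qc and Fcgr1 were not tested. The T cell, macrophage, neutrophil and NK cell lists had more rises than falls with imatinib and the B cell list more falls. The summed signal of the neutrophil markers was nevertheless lower with imatinib, at 2.70409 and 2.99957 against 3.5116 and 3.26117 in control. Ly6g, the tested neutrophil marker of highest signal, fell (difference -0.59). The sums of the macrophage and NK cell markers were higher with imatinib. The part of these cell types in the values of the ribosomal protein genes was not tested.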

How the data were processed

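Splenocyte RNA was hybridised to 4 Agilent 1-colour arrays (design 026655). Each deposited scanner file gives the intensity of every spot, and Feature Extraction 9.1.3.1 is the software named per the file headers. A deposited table gives 1 log2 value per probe and sample, which the authors computed in GeneSpringGX per the labels. Its columns equalled the log2 processed signal less a constant, within 0.01 for at least 99.88% of probes, and had medians of -3.99 and -3.92 (imatinib samples), -4.10 and -4.17 (control samples). 

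Control and outlier spots were left out, log2 processed signals were averaged by probe, and the 75th percentile over all spots of the array was subtracted. Probes well above background on both arrays of a group were tested in R 4.3.3 with limma 3.58.1 (lmFit, eBayes, group as the term, two-sided, Benjamini-Hochberg adjusted p under 0.05). The fit had 2 residual and 2.05 prior degrees of freedom, and was tested on simulated data. SD and SE are on the log2 scale, intervals are 95%, and fold changes are 2 to the power of the log2 difference. For lists the brightest tested probe stood for its gene. Alternatives were other scalings, normexp with an offset of 50, other filters, a replicate block, each array left out, the deposited table and another variance model.

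Members and lists were chosen with earlier results of these data known. Named genes followed a rule: the 6 largest rises and falls past the threshold with 1 probe per gene, the stalk genes, Rpsa, Rps6, Rpl5, Rpl11, paralogs with partners, Rps19bp1, up to 3 genes per pathway list, and the 2 markers of highest signal per cell type list, printed for B and T cells. Of the rises, all 6 were taken, and 5 falls passed. Other member probes named were chosen after their values were seen, as was the border at a signal of 5. Of the 178 members 171 were named by accession. Promoters are from RefSeq, GRCm38.p6. Where an array has marked spots of a probe, that probe was left out of the fit. Some items are not reported here.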

Additional observations from a re-analysis of the deposited data

How the results depend on the processing

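The 18 higher and 11 lower calls of the family and its median of 0.14 depended on several settings. Higher calls numbered 32 with normexp, 11 with quantile normalization, 3 with median centring, 2 with spike-in scaling, 2 without the filter on dim probes, 46 with a trended and robust variance model and 8 with 1 probe per gene. Lower calls numbered 17 with median centring, 36 with spike-in scaling, 4 without the filter, 5 with 1 probe per gene and 1 with only probes of a signal of at least 5, a setting chosen after seeing the data. The median was 0.019 with quantile normalization, -0.0466 with median centring and -0.1378 with spike-in scaling. Of the 10622 probes past the threshold in all, 4971 passed without the filter and 10299 without probes that hold a short repeat. Leaving out 1 array at a time gave 4040 to 8878 probes in all, 2 to 28 higher calls, 3 to 8 lower calls and a median of 0.0637 (without control 2) to 0.2043 (without control 1). In all 4 of those fits 2 of the 18 higher calls (Rpl3l and a weak Rpl22 probe) and 3 of the 11 lower ones (a weak Rps27a probe among them) passed. Same-numbered samples did not deviate together (r = -0.07). With the replicate number as a block 3 members were higher and 7 lower. Of the 174 tested member probes, 145 had a positive difference with the scaling used for the fit, and 21 with spike-in scaling. Signs thus reversed for most members with spike-in scaling, among them Rps16 (-0.0602), Rpl27a (-0.051) and a weak Rpl39 probe (-0.0107). Other examples in that scaling were Rpl3 (-0.2645, passed as lower), an Rpl11 probe (-0.2677, passed as lower) and, outside the members, Tpt1 (-0.058). Signs also reversed for the median of the transcription regulators with quantile normalization (0.0559) and the median of other TOP mRNAs without control 1 (0.0013; -0.0532 without control 2). Beyond what each setting does by its construction (fewer samples, other probes tested), the cause was not tested. Probes at the floor of the arrays moved with the background correction (Rpl3l from 1.75 to 0.48 with normexp), and weak probes further above it, such as those of Rpl22 (0.64 and 0.59) and Rpl30 (-0.47 and -0.48), kept their size.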
